A study of Homo sapiens with 3 samples.

Results

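Ribosome footprints on the 6 human actin genes (ACTA1, ACTA2, ACTB, ACTC1, ACTG1 and ACTG2) were examined in HEK293T cells that expressed WT, G245S or R273H p53. These are 6 of the 63241 genes in the footprint table, and all 6 passed the filter on low counts that left 19820 genes for testing. ACTA2 was chosen by its near loss of footprints in both mutants against WT, so its values in those contrasts are a description with no test. The other 5 were chosen by family name, to see whether the loss was shared by its paralogs. The contrast of G245S with R273H played no part in the choice.

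The study profiled footprints to ask whether the translation of RNAs bound by mutant p53 differs from that in WT cells. HEK293T cells derive from human embryonic kidney and make SV40 large T antigen, which binds p53. All 3 groups received a p53 construct (WT, or the hotspot changes G245S or R273H of the DNA-binding domain), and all were exposed to cycloheximide for 2 min, which holds ribosomes on the mRNA. Cells were grown in 10 cm dishes, lysates were digested with micrococcal nuclease (3 U per μg RNA, 30 min), and the monosome fraction was sequenced. The construct was put in by lentivirus followed by puromycin selection according to the study's methods, whereas the labels describe the same cells as both stable and transient. The treatment label of the mutants also names the WT construct, and groups here follow the sample titles. Each group has 3 dishes, which were pooled at reverse transcription into 1 pool per group, so that group and pool cannot be told apart and the p-values measure the spread between dishes of a pool. Each dish held 18.7 to 24.6 M counts. No group lacked a p53 construct. A level raised by added WT p53 and a level lowered by a mutant therefore cannot be told apart. Each rise or fall in a mutant against WT is relative to cells with the WT construct.

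Actin is the protein of the thin filaments that shape, move and contract cells. The family has 2 cytoplasmic members, ACTB (beta) and ACTG1 (gamma), which nearly all cells use, and 4 muscle-type members named for their main tissue: ACTA1 in skeletal muscle, ACTC1 in heart, ACTA2 in vascular smooth muscle and ACTG2 in the smooth muscle of the gut. Their proteins are nearly the same while their coding sequences have drifted apart at synonymous positions, which decides how well a short footprint can be assigned to one of them. ACTA2 is also the usual marker of myofibroblasts.

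The first 60 coding bases of each gene are shown because they illustrate where footprints of the 6 genes can be told apart. They were read from GENCODE v44 on GRCh38, 5′ to 3′ on the coding strand, and capitals mark bases that differ from the aligned base of ACTA2.
ACTA2: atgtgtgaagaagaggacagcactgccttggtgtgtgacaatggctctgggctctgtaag
ACTG2: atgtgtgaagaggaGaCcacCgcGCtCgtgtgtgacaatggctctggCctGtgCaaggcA
ACTC1: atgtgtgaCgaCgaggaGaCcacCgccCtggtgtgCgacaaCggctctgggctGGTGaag
ACTA1: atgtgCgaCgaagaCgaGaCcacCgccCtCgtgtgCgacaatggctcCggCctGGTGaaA
ACTG1: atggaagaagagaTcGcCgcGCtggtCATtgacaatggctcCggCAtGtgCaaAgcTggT
ACTB: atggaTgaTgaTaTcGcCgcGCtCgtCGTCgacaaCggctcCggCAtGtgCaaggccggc
They lie in the first coding exon at chr10:88948871-88948930 (ACTA2, minus strand), chr2:73901312-73901371 (ACTG2, plus strand), chr15:34794749-34794808 (ACTC1, minus strand), chr1:229433056-229433115 (ACTA1, minus strand), chr17:81512295-81512354 (ACTG1, minus strand) and chr7:5529598-5529657 (ACTB, minus strand). Between 10 bases (ACTG2) and 19 bases (ACTB) of these stretches differ from the aligned base of ACTA2. Bases of ACTA2 with no aligned base in a paralog are neither shown nor counted. Gaps came to 3 bases for ACTG2 and 6 for each of ACTB and ACTG1 over the coding region, so printed columns need not line up.

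Over the whole coding region, which holds 1131 bases in ACTA2, the nucleotide identity of ACTA2 with its paralogs was 82.2% (ACTB) to 85.5% (ACTC1), while the protein identity was 94.1% (ACTB) to 99.5% (ACTG2). ACTB and ACTG1 were closer to each other, with 91.3% coding and 98.9% protein identity. The longest exact run shared by ACTB and ACTG1 was 59 bases, and that shared by ACTA1 and ACTB was 58 bases.

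The coding regions were therefore cut into all overlapping windows of 30 nucleotides, close to the length of a footprint, and each window was looked for in every annotated transcript. For ACTA2, 1081 of 1102 windows (98.1%) were found in no other gene, 12 were shared with ACTC1, 3 with ACTB and none with ACTA1, ACTG1 or ACTG2. The share of windows found in no other gene was 96.0% for ACTG2, 94.2% for ACTC1 and 88.6% for ACTA1. It was 66.4% for ACTG1 and 51.1% for ACTB, which share windows with each other and with other genes. ACTB had 482 of its windows, and ACTG1 276, in at least one of the actin pseudogenes and POTE genes, against 9 windows of ACTA2. With windows of 34 nucleotides the shares were 99.6% for ACTA2, 75.4% for ACTG1 and 61.0% for ACTB. The footprint counts of all 6 genes were not whole numbers in any of the 9 libraries, so some of their reads had been divided between genes by an estimate.

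**Figure D1:**
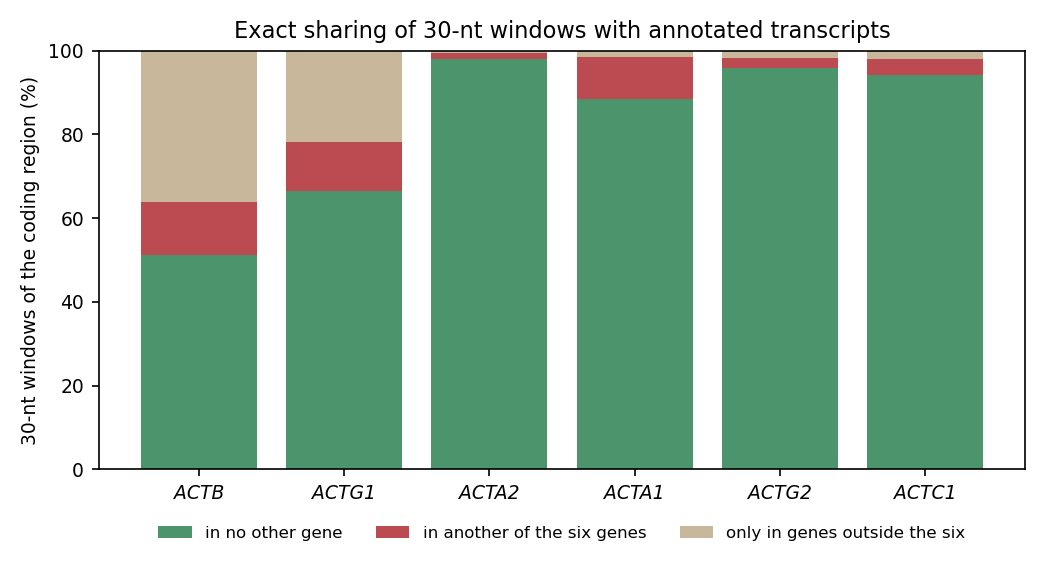
Share (%) of the 30-nucleotide windows of each coding region found in no other gene (green), in another of the 6 actin genes (red) or only in genes outside the 6 (beige), over the transcripts of GENCODE v44. ACTA2 has the highest share in no other gene (98.1%) and ACTB the lowest (51.1%).

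ACTA2, at chr10:88935074-88991339 on the minus strand, held far fewer footprints in both mutants than in WT. Its level, in counts per M counts of the library (CPM), was 228, 224 and 219 in the 3 WT dishes, 4.78, 4.26 and 4.12 in G245S, and 4.75, 4.04 and 2.96 in R273H. The lowest WT dish stood far above the highest mutant dish, and the dishes of both mutants overlapped each other. In estimated counts, the WT dishes held 4554, 4208 and 4172, the G245S dishes 89.5, 84.4 and 89.0, and the R273H dishes 116, 99.4 and 69.0.

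ACTA2 averaged 224 ± 4.32 CPM over the WT dishes (SD, n = 3), 4.39 ± 0.349 CPM over the G245S dishes and 3.92 ± 0.900 CPM over the R273H dishes, or 1.96% and 1.75% of the WT mean. The fitted log2 fold change was −5.65 (SE 0.0645) for G245S and −5.83 (SE 0.0628) for R273H, which is 50.4-fold and 56.8-fold lower. Both contrasts use the same WT dishes. Of the 19820 genes tested, 5 had a lower fold change in G245S and none had a lower one in R273H. In bulk libraries such as these, fewer cells with ACTA2 footprints and fewer footprints per cell cannot be told apart. No RNA-seq was used here, so less ACTA2 mRNA and less translation of it cannot be told apart either. Since ACTA2 was picked for this fall, no p-value is attached to it.

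Between the mutants, where the choice of ACTA2 was not involved, the level of ACTA2 was 0.17 higher in G245S than in R273H on the log2 scale (SE 0.133, adjusted p = 0.568, edgeR's quasi-likelihood test). The 95% interval of this difference ran from −0.10 to 0.45.

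**Figure D2:**
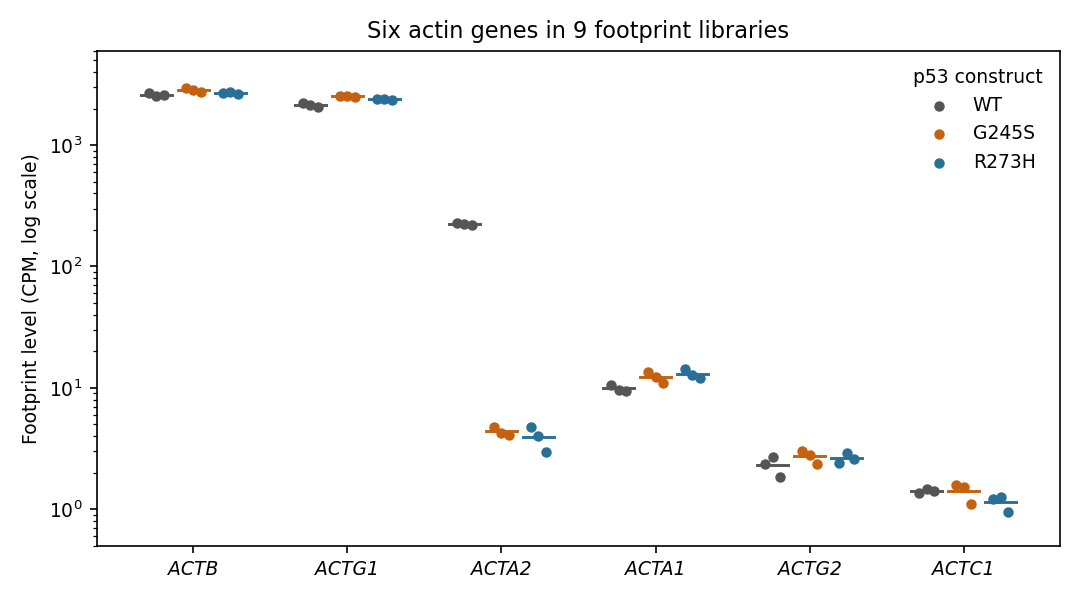
Footprint level in CPM (log scale) of the 6 actin genes, with one point per dish and a line at the mean of the 3 dishes, for WT (grey), G245S (orange) and R273H (blue). The ACTA2 dishes lie at 219 to 228 CPM in WT and at 2.96 to 4.78 CPM in the mutants, while the groups of each of the other 5 genes lie close together.

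None of the 5 paralogs was called lower in either mutant. By edgeR at an adjusted p under 0.05, 3 of 5 were called in G245S (ACTB, ACTG1 and ACTA1) against a background of 24.7% of all tested genes, and 2 of 5 in R273H (ACTG1 and ACTA1) against 28.8%. All of these calls were toward higher levels in the mutant. The shares over all tested genes were not matched for level. The number called lower was also 0 at an unadjusted p under 0.05 and 0 by DESeq2, in both contrasts. The lowest 95% interval bound among the 5 paralogs was −0.79 on the log2 scale (ACTC1 in R273H). These contrasts share the WT dishes, so their values are given side by side and are not separate evidence.

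ACTG1, the gamma cytoplasmic actin, rose in both mutants. Its level was 2209, 2125 and 2073 CPM in WT, 2566, 2562 and 2471 CPM in G245S, and 2398, 2423 and 2344 CPM in R273H. The groups did not overlap in any pairing, with WT lowest and G245S highest. The log2 fold change was 0.27 in G245S (SE 0.0227, adjusted p = 3.8e-10) and 0.16 in R273H (SE 0.0226, adjusted p = 2.5e-06), with edgeR.

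ACTB, the beta cytoplasmic actin, had the most footprints of the family. It stood at 2668, 2553 and 2569 CPM in WT, 2945, 2875 and 2748 CPM in G245S, and 2716, 2726 and 2652 CPM in R273H. The G245S dishes were all above the WT dishes, whereas the lowest R273H dish was below the highest WT dish. The log2 fold change in G245S was 0.16 (SE 0.0240, adjusted p = 1.5e-05, edgeR). In R273H it was 0.06 (SE 0.0239, adjusted p = 0.077, edgeR), which did not pass the threshold, although 10 of 19 alternative analyses called it, with values of 0.04 to 0.10 over all 19.

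ACTA1, the skeletal muscle actin, was a low gene that was also called higher in both mutants. Its level was 10.6, 9.60 and 9.44 CPM in WT, 13.5, 12.4 and 11.1 CPM in G245S, and 14.2, 12.8 and 11.9 CPM in R273H. All mutant dishes were above all WT dishes. The log2 fold change was 0.33 in G245S (SE 0.0969, adjusted p = 0.0114, edgeR), and without G245S dish 1 it was 0.26 and no longer called (adjusted p = 0.080). In R273H it was 0.40 (SE 0.0935, adjusted p = 0.0018, edgeR). ACTA1 shares 51 windows of 30 nucleotides with ACTB and 33 with ACTG1. It held 0.194% to 0.206% of all actin counts in WT, 0.211% to 0.244% in G245S and 0.238% to 0.277% in R273H. That total includes ACTA2, whose fall raises this share in both mutants. Relative to the counts of ACTB plus ACTG1, which leave ACTA2 out, the G245S dishes overlapped the WT dishes. On that scale all R273H dishes were above all WT dishes. The part of shared reads in the rise of ACTA1 was not tested.

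ACTG2, the enteric smooth muscle actin and the closest protein to ACTA2, showed no detectable fall. It was at 2.33, 2.70 and 1.85 CPM in WT, 3.00, 2.81 and 2.33 CPM in G245S, and 2.38, 2.88 and 2.58 CPM in R273H. The 3 groups overlapped. The log2 fold change was 0.25 in G245S (95% interval −0.14 to 0.64, adjusted p = 0.369, edgeR) and 0.18 in R273H (−0.19 to 0.56, adjusted p = 0.498).

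ACTC1, the cardiac actin, was the lowest of the family, with 22.0 to 31.2 counts per library. Its level was 1.36, 1.46 and 1.42 CPM in WT, 1.58, 1.52 and 1.10 CPM in G245S, and 1.22, 1.27 and 0.945 CPM in R273H. The G245S dishes spread on both sides of WT, and the R273H dishes were all below it. The log2 fold change was 0.02 in G245S (95% interval −0.48 to 0.52, adjusted p = 0.968, edgeR) and −0.29 in R273H (−0.79 to 0.22, adjusted p = 0.421), so at this depth neither a modest rise nor a modest fall could be detected. ACTC1 is the paralog that shares the most windows with ACTA2.

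**Figure D3:**
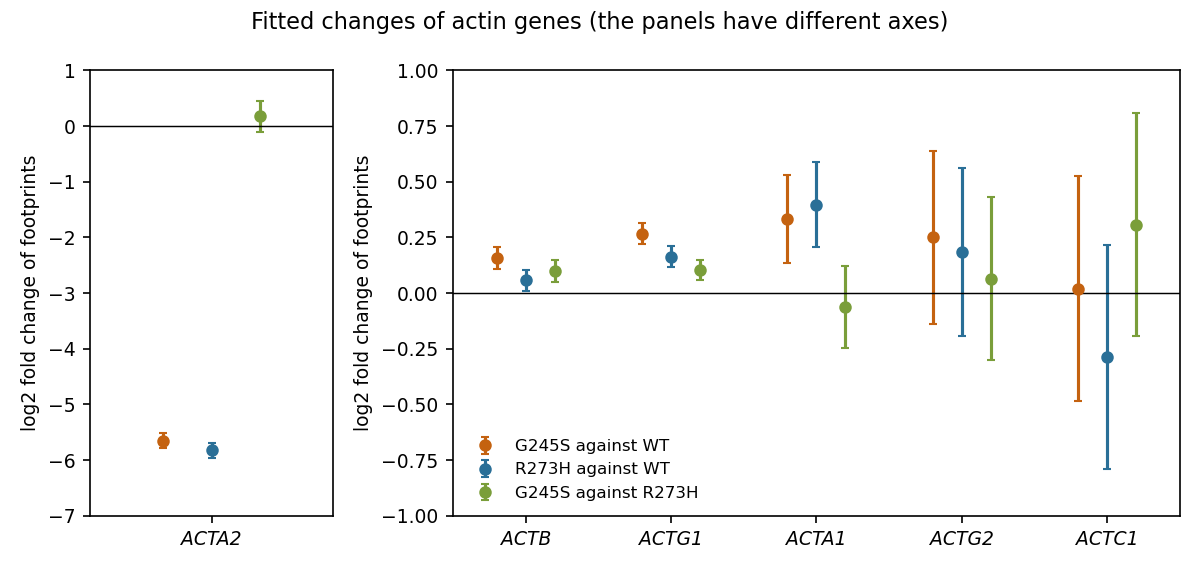
Fitted log2 fold change of each actin gene with its 95% interval for G245S against WT (orange), R273H against WT (blue) and G245S against R273H (green), where the left panel, for ACTA2, has a wider axis than the right panel. ACTA2 lies at −5.65 and −5.83 against WT, while the intervals of the other 5 genes lie between −0.79 and 0.81.

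Between the mutants, 2 of the 6 genes were called, where 2.59% of all tested genes were. ACTB was higher in G245S than in R273H by 0.10 on the log2 scale (SE 0.0239, adjusted p = 0.0199, edgeR), as was ACTG1 (0.10, SE 0.0226, adjusted p = 0.0100). For both genes all 3 G245S dishes were above all 3 R273H dishes, which restates the same counts and adds no test. They are the 2 members with the most counts, where smaller differences can be called. The 2.59% over all tested genes was not matched for level. ACTA1 differed by −0.06 (95% interval −0.25 to 0.12), ACTG2 by 0.07 (−0.30 to 0.43) and ACTC1 by 0.31 (−0.19 to 0.81), none of them called. The call of ACTB was lost in the analyses that left out G245S dish 1 or 2 or any one of the R273H dishes (log2 fold changes 0.08 to 0.11), and that of ACTG1 was lost without G245S dish 1 or 2 or R273H dish 1 or 3 (0.09 to 0.10). Both were lost when the trend with coding length and with GC content was removed (0.07 for each).

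Dividing each level by the coding length puts the genes on 1 scale. In WT the order was ACTB (2308 CPM per coding kb), ACTG1 (1898), ACTA2 (198), ACTA1 (8.73), ACTG2 (2.04) and ACTC1 (1.25). In G245S it was ACTB (2539 CPM per coding kb), ACTG1 (2252), ACTA1 (10.9), ACTA2 (3.88), ACTG2 (2.41) and ACTC1 (1.24). In R273H the order was that of G245S, with ACTA1 at 11.5, ACTA2 at 3.47, ACTG2 at 2.32 and ACTC1 at 1.01 CPM per coding kb. ACTA2 thus stood above ACTA1 in WT and below it in both mutants. Neighbours in these orders did not overlap between dishes, although in R273H the lowest ACTA2 dish (2.62 CPM per coding kb) was only just above the highest ACTG2 dish (2.56).

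The fall of ACTA2 changed which muscle-type actin held most of the muscle-type footprints. ACTA2 made up 94.1% to 94.5% of the counts of the 4 muscle-type genes in the WT dishes, 20.4% to 22.1% in G245S and 16.1% to 21.1% in R273H. ACTA1 made up 4.03% to 4.37% in WT, 59.0% to 59.4% in G245S and 60.9% to 64.8% in R273H. The muscle-type genes together held 4.73% to 4.84% of all actin counts in WT, 0.355% to 0.413% in G245S and 0.367% to 0.439% in R273H. Without ACTA2, the other 3 muscle-type genes summed to 12.7 to 14.3 CPM for WT, 14.5 to 18.1 CPM for G245S and 15.5 to 17.8 CPM for R273H, so the loss of ACTA2 was not matched by a gain of comparable size in its muscle-type paralogs. The shares that contain ACTA2 follow from the value that chose it and carry no test.

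The 6 genes together took 0.487% to 0.553% of a library. Summed, they reached 4970 ± 131 CPM with WT p53 (SD, n = 3), 5410 ± 154 CPM with G245S and 5107 ± 82.0 CPM with R273H. The G245S dishes (5237 to 5534 CPM) were above the WT dishes (4873 to 5119 CPM), a mean difference of 440 CPM. The R273H dishes overlapped WT, with a mean difference of 137 CPM. This sum contains ACTA2, which averaged 224 CPM in WT, 4.39 in G245S and 3.92 in R273H. Its fall lowers the sum in both mutants, so these differences carry no test and understate the change of the other actin genes together. With 3 dishes against 3 an exact permutation test cannot go below p = 0.1. Within the cytoplasmic pair, ACTG1 held 44.7% to 45.4% of the counts in WT, 46.6% to 47.4% in G245S and 46.9% to 47.1% in R273H. The mean share of ACTG1 was 1.89 percentage points higher in G245S and 1.83 higher in R273H than in WT, with no overlap of dishes. For each, the two-sided exact permutation p was 0.1 and the adjusted p was 0.15 over 3 contrasts. The share differed by 0.0569 points between the mutants (exact permutation p = 0.9).

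Genes that lie across ACTA2 on chromosome 10 did not share one pattern. Of 9 genes annotated within 100 kb of it, 3 passed the filter on low counts. FAS, a death receptor gene on the opposite strand (chr10:88953813-89029605), shares 387 of 5628 annotated exon bases with ACTA2 and no coding base of it. FAS was at 20.2, 17.4 and 16.9 CPM in WT, 6.09, 7.98 and 6.52 CPM in G245S, and 6.26, 7.36 and 5.28 CPM in R273H, with every mutant dish below every WT dish. It fell by 1.39 on the log2 scale in G245S (SE 0.111, adjusted p = 3.0e-10, edgeR) and by 1.52 in R273H (SE 0.108, adjusted p = 2.7e-11). The ratio of ACTA2 counts to FAS counts was 11.2 to 13 in WT and 0.534 to 0.785 in the mutants, so that ACTA2 dropped further than FAS.

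STAMBPL1, a deubiquitinase gene that spans part of the same interval on the opposite strand (chr10:88879734-88975153) with no exon base in common, was at 9.90, 8.10 and 8.09 CPM in WT, 8.17, 7.47 and 9.94 CPM in G245S, and 8.26, 7.36 and 7.78 CPM in R273H. These groups overlapped, and the log2 fold changes of −0.0045 (SE 0.115) and −0.16 (SE 0.113) were not called (adjusted p = 0.984 and 0.324, edgeR). ENSG00000286116, a long non-coding RNA gene on the strand of ACTA2 (chr10:88990045-88994249) that shares 401 exon bases with it and no coding base, had 27.1 to 37.4 counts in the WT dishes and 2.06 to 7.33 in the mutant dishes. Its mutant means were 11.5% and 15.0% of the WT mean, given without a test because it passed the filter on low counts through the WT dishes. Reads on the bases it shares with ACTA2 cannot be told apart by strand. The antisense gene ACTA2-AS1, which shares 1638 exon bases and 364 coding bases with ACTA2, had no count in the 3 WT dishes (which allows up to 3 counts per dish) and 2 counts over all 9 libraries. How strand was handled in counting is not stated, so reads on bases shared by genes of opposite strands cannot be told apart.

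The genes whose pattern over the 9 libraries was most like that of ACTA2 were found by the root mean square difference of centred log2 CPM, among the 12652 genes whose count averaged 100 or more. They were TP53I3, a quinone oxidoreductase (0.78), MDM2, a ubiquitin ligase (1.08), PHLDA3, a protein with a PH domain (1.11), the long non-coding RNA gene ENSG00000288873 (1.16) and FDXR, a mitochondrial ferredoxin reductase (1.22). Since they were picked for this likeness, their levels are a description. From RNA-seq of its stable lines, the paper reports that both mutants suppressed transcription driven by p53, relative to WT p53. The bearing of that on ACTA2 and these 5 genes was not tested. TP53I3 had 184 ± 6.90 CPM with WT p53 (SD over 3 dishes), 11.1 ± 0.376 with G245S and 10.1 ± 0.425 with R273H. MDM2 had 863 ± 43.9 CPM with WT p53, 76.0 ± 4.28 with G245S and 76.9 ± 2.88 with R273H. Each of the 5 fell less than ACTA2, with folds of 8.23 (FDXR) to 16.3 (TP53I3) in G245S and 9.84 (FDXR) to 18.2 (TP53I3) in R273H.

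**Figure D4:**
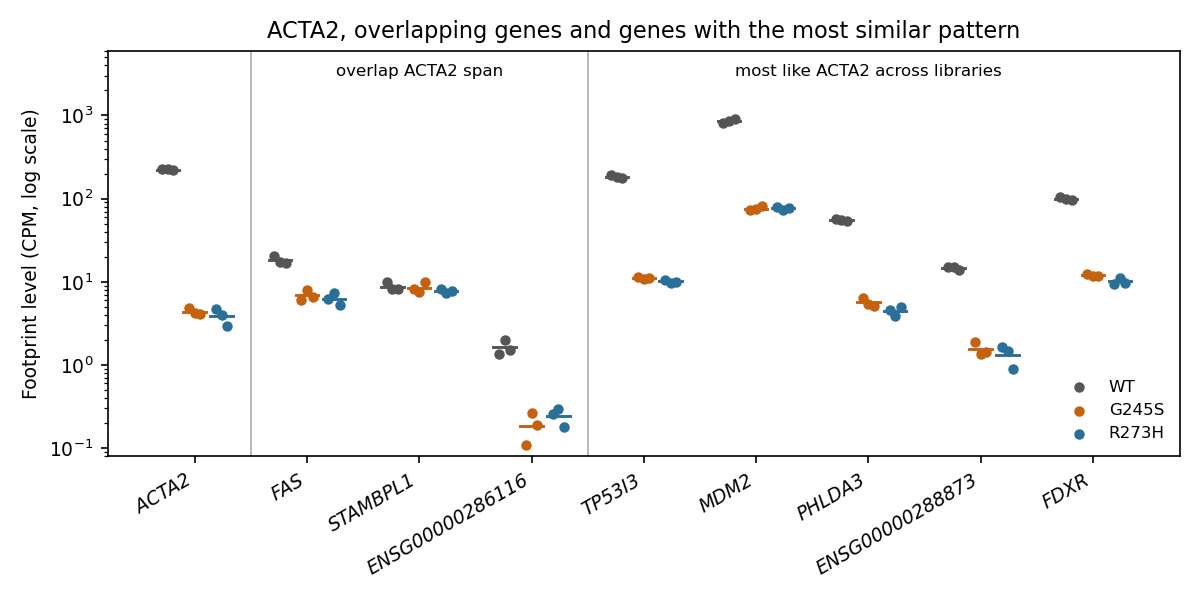
Footprint level in CPM (log scale) of ACTA2, of 3 genes that overlap its span and of the 5 genes with the most similar pattern, with one point per dish and a line at the mean of WT (grey), G245S (orange) and R273H (blue). FAS and ENSG00000286116 are lower in both mutants, while the STAMBPL1 groups overlap at 7.36 to 9.94 CPM.

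The other genes with an actin sequence in the list are ACTBL2, pseudogenes named after ACTB and ACTG1, and POTE genes, which carry an actin-like part. Of 41 in the table, 35 were tested, at a median of 3.66 CPM. In G245S 7 of them were called (20.0%, against 24.7% of all tested genes), all higher, with a median log2 fold change of 0.32 against −0.00069 over all tested genes. In R273H 7 were called higher and 1 lower (POTEF, at −0.28), or 22.9% against 28.8% of all tested genes, with a median of 0.21. Neither share exceeded that of all tested genes. ACTG1P12 had log2 fold changes of 0.69 (adjusted p = 0.00030, edgeR) and 0.57 (adjusted p = 0.0016), and POTEE of 0.42 (adjusted p = 0.058) and 0.63 (adjusted p = 0.0026). Because these genes share windows with ACTB and ACTG1, their counts may include reads of those genes, and adding each parent's pseudogenes to it left the log2 fold change in G245S at 0.16 for ACTB and 0.27 for ACTG1.

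The actin-related proteins, among them the Arp2/3 complex that nucleates branched filaments, had median log2 fold changes of 0.03 in G245S and 0.04 in R273H. Of 17 tested, 2 were called in G245S, both higher, whereas R273H had 4 calls upward and 3 downward. These are 11.8% of the list against 24.7% of all tested genes in G245S, and 41.2% against 28.8% in R273H. ACTL6A, a subunit of chromatin remodelling complexes, rose by 0.17 (adjusted p = 7.0e-05, edgeR) and 0.15 (adjusted p = 0.00030). In R273H the Arp2/3 subunits went both ways, with ARPC1B at 0.16 (adjusted p = 0.0021) and ARPC5 at −0.20 (adjusted p = 0.00014).

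Of 15 genes that bind or process actin monomers, G245S had 1 call upward and 3 downward and R273H had 2 upward and 7 downward, with medians of −0.04 and −0.06. The share called was 26.7% in G245S, near the 24.7% of all tested genes, and 60% in R273H, against 28.8%. GSN, which encodes the filament-severing protein gelsolin, fell by 0.34 in both mutants on the log2 scale (adjusted p = 5.9e-07 and 4.1e-07, edgeR). ACTMAP, the protease that trims the start of nascent actin, was at −0.11 for G245S (adjusted p = 0.185, edgeR), not called, and fell by 0.27 for R273H (adjusted p = 0.00078).

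Among 22 filament partners and non-muscle myosins, calls upward and downward numbered 4 and 8 for G245S and 5 and 8 for R273H, with medians of −0.04 and −0.05. That is 54.5% of the list against 24.7% of all tested genes, and 59.1% against 28.8%. The tested genes of this list had a median of 251 CPM, those of the monomer list 103 CPM and the actin-related proteins 98.5 CPM. Smaller changes can be called in genes with more counts, and the share over all tested genes was not matched for level. FSCN1, which encodes the bundling protein fascin, stood out from the list with 80.4 ± 2.40 CPM for WT (SD, n = 3), 160 ± 6.51 for G245S and 160 ± 4.25 for R273H, log2 fold changes of 1.01 (adjusted p = 5.4e-19, edgeR) and 0.99 (adjusted p = 5.0e-19).

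Of 14 smooth muscle contractile genes, whose products work with ACTA2 in smooth muscle, 10 were tested, of which 1 had risen and 4 had fallen in G245S and 1 had risen and 5 had fallen in R273H, with medians of −0.04 and −0.27. That is 50.0% of those tested against 24.7% of all tested genes, and 60% against 28.8%. CALD1, which encodes caldesmon, was at 214 ± 4.49 CPM for WT (SD, n = 3), 151 ± 4.47 for G245S and 159 ± 3.35 for R273H, so it fell by 0.48 (adjusted p = 7.8e-13, edgeR) and 0.43 (adjusted p = 6.7e-12) on the log2 scale. MYLK, the myosin light chain kinase, fell by 0.56 (adjusted p = 0.00011) and 0.38 (adjusted p = 0.0031). The lowest log2 fold change in this list was −0.56 in G245S and −0.68 in R273H, against −5.65 and −5.83 for ACTA2. The −0.68 came from a gene with 8 to 10 counts per R273H dish and was not called.

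Serum response factor (SRF) and its actin-regulated cofactors of the MRTF family drive many actin and smooth muscle genes. Of 15 tested genes of a list of SRF, MRTFs and their targets, 5 rose and 2 fell with G245S, while 2 rose and 3 fell with R273H, with medians of 0.08 and 0.04. The share called was 46.7% against 24.7% of all tested genes in G245S, and 33.3%, near the 28.8% of all tested genes, in R273H. FHL2, a LIM-domain protein, rose by 0.29 (adjusted p = 0.00011, edgeR) and 0.30 (adjusted p = 3.7e-05). Of 19 striated muscle genes, 4 passed the filter on low counts. TNNC1, which encodes cardiac troponin C, was the one of them called, at −1.03 in G245S (adjusted p = 0.0139, edgeR), a call lost without G245S dish 3 (−0.91) and without dish 3 of every group (−0.92), and was at −0.68 in R273H (adjusted p = 0.0754).

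**Figure D5:**
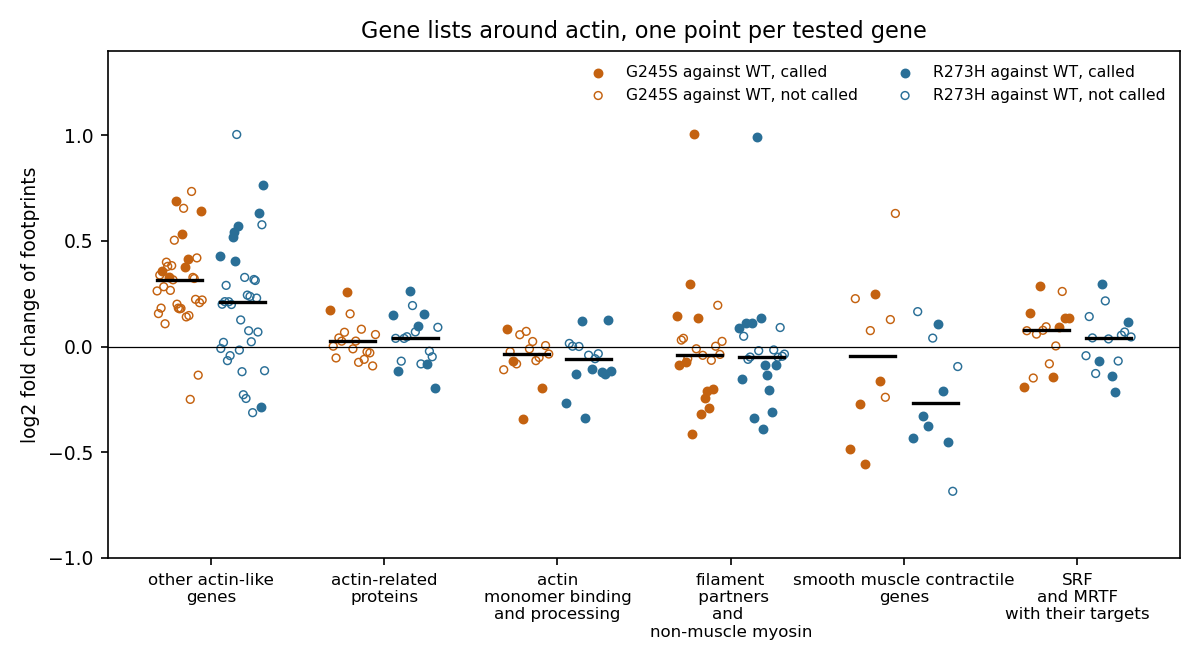
Log2 fold change of every tested gene in 6 lists around actin, for G245S against WT (orange) and R273H against WT (blue), with filled points for genes called at an adjusted p under 0.05, open points for the rest and a black line at the median. FSCN1 lies near 1 in both contrasts, and no gene of these lists comes near the −5.65 and −5.83 of ACTA2.

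The labels call the cells epithelial. KRT18 was at 116 CPM in WT and VIM at 888 CPM, while KRT19 had no count in WT or R273H. The smooth muscle marker MYH11 was at 0.390, 0.351 and 0.472 CPM in WT, G245S and R273H, and CNN1 at 0.0686, 0.245 and 0.0966 CPM. The summed level of the 4 smooth muscle markers was 11.1 to 11.9 CPM in WT, 9.33 to 10.4 in G245S and 8.98 to 10.6 in R273H, nearly all of it LMOD1 (10.5, 8.56 and 8.34 CPM), and that of the 7 fibroblast or pericyte markers was 52.0 to 56.9, 45.8 to 52.5 and 55.1 to 56.9 CPM. COL1A1 and LUM gave most of the latter, and COL1A2 had no count in WT or R273H. The 3 immune and 3 endothelial markers summed to at most 0.214 and 0.185 CPM in any library. None of these lists lost footprints on the scale of ACTA2.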

How the data were processed

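Footprints of 3 groups of HEK293T dishes were sequenced. The table deposited by the authors reports each gene's footprints in expected counts, which need not be whole numbers and were not scaled for depth or length. The submitters' processing notes name Trim Galore, cutadapt, UMI-tools, STAR and GRCh38, while the counting tool, annotation release, strand setting and treatment of reads with several matches are not given in the sources used here. Intervals on a count of 0 cover counting error only.

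Expected counts were rounded and fitted with edgeR 4.0.16 in R 4.3.3 (TMM, filterByExpr, robust quasi-likelihood, two-sided) over the 9 libraries together, with group as sole covariate. Calls were made at an adjusted p under 0.05 (Benjamini-Hochberg, 19820 genes). TMM factors were 0.987 to 1.01 and the biological coefficient of variation was 2.58%. The 95% intervals come from the same fit. CPM is on the total count of a library. Of the 63241 identifiers, 62666 (99.1%) matched GENCODE v44, from which coordinates, coding regions and windows were taken. No spike-in was used here, so fold changes are relative within libraries. No matched RNA-seq was used either, so a change in mRNA level and a change in translation cannot be told apart for any gene.

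The members, the gene lists and the alternatives were chosen with earlier results of these data known. Named were the 6 actin genes, genes within 100 kb of ACTA2, the 5 genes most like ACTA2 and, per list and mutant, up to 3 called genes with the largest log2 fold change. Of the 26 list genes so named, the report describes the 12 whose calls held in all alternatives, except 1 that is not reported here, and TNNC1. LMOD1 also appears as a marker, and CFL1, TMSB4X and CAP1 appear among the alternatives. POTEF and the cell type markers were named beside the rule. Alternatives were RLE and upper-quartile scaling, no filter, DESeq2 1.42.0, a replicate block, 6 libraries only, removal of the trend with coding length and with GC content, summed pseudogenes and leaving out each dish. Omitting dish 3 of every group was added after seeing the data.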

Additional observations from a re-analysis of the deposited data

Results flagged for a closer look

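The mutants differed from each other in the cytoplasmic actins by a direct test of G245S against R273H. The log2 difference was 0.1005 for ACTB (adjusted p = 0.0199, edgeR) and 0.1033 for ACTG1 (adjusted p = 0.0100), higher in 3 of 3 G245S dishes for each gene. Each mutant was its own pool, so pool and mutant cannot be told apart. Both calls were lost when G245S dish 1 (0.08 and 0.09) or G245S dish 2 (0.10 and 0.10) was left out. They were also lost without R273H dish 1 or 3, and with the coding length and GC trend removed. Without R273H dish 2 the call of ACTB was lost.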

How the results depend on the processing

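The number of paralogs called against WT was 2 to 3 of 5 in every alternative for G245S and for R273H. Over 19 alternatives, the log2 fold change of ACTA2 was −5.72 to −3.50 in G245S and −5.99 to −3.52 in R273H. Of these, −3.50 and −3.52 belong to the sums of the 4 muscle-type genes and not to ACTA2 alone. The alternatives re-fit the libraries that chose ACTA2, so they are no test of its fall. The number of members called between the mutants was 2, fell to 0 with the coding length and GC trend removed, and was 0 to 2 when single dishes were left out. Dish numbers recur in each group, but the labels do not tie them to a shared day or batch. Same-numbered dishes of 2 groups correlated at 0.042 to 0.229 in their deviations, over 0.1 in 4 of 9 pairs, and 8 of 9 libraries correlated best with their own number, a hint from the data only. With the replicate block the calls were 3 of 5, 3 of 5 and 2 of 6, the first and last as before, since ACTB in R273H passed the threshold (0.06, adjusted p = 0.0118). Differences near 0 that were not called changed sign. The ACTG1 share between the mutants ranged from −0.112 to 0.284 percentage points (with −0.00184 among them) when single dishes were left out. ACTC1 in G245S ranged from −0.0805 to 0.1764 without single dishes (−0.0350 and −0.0101 among them). Between the mutants, ACTA1 ranged from −0.1344 to 0.0148 (0.0065 among them) and ACTG2 from −0.0108 to 0.1753 (−0.0022 among them) without single dishes. STAMBPL1 in G245S was 0.0077 with upper-quartile scaling, 0.0218 with the trend removed, 0.0240 with trend and block, and −0.1315 to 0.0987 (0.0260 and 0.0872 among them) without single dishes. CAP1 in R273H ranged from −0.0030 (without R273H dish 1) to 0.0405. Calls of a fall were lost with a change of sign when the trend was removed, for CFL1 in G245S (from −0.0681, adjusted p = 0.0276, to 0.0121, or 0.0122 with the block) and TMSB4X in R273H (from −0.1301, adjusted p = 0.0438, to 0.0139, or 0.0140). The causes were not tested. Counts of 22.0 to 31.2 per library limit ACTC1, and shared windows limit ACTB and ACTG1.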
